A study of Mus musculus with 9 samples.

Results

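A set of 9 genes for enzymes that make serine, glycine, asparagine, proline and one-carbon units were followed in mouse embryonic fibroblasts (MEFs) under hyperosmotic stress. They are Asns, Phgdh, Psat1, Psph, Shmt2, Mthfd2, Aldh18a1, Pycr1 and Aldh1l2, chosen by name as enzyme genes known to be under the control of Atf4, and all 9 were found among the 35275 genes of the deposited table. All 9 passed the filter on low counts that left 13082 genes for testing. MEFs of strain C57Bl/6 were kept in iso-osmolar medium or treated for a few hours in medium brought to 500 mOsm with 200 mM added sucrose or to 600 mOsm with 300 mM added sucrose, and poly-T enriched RNA was sequenced from 3 libraries per treatment. The labels give no difference between the treatments but the sucrose, and they do not say whether the libraries of a treatment came from separate cultures, so that p-values measure the spread between these libraries, which may be technical. The question the design addresses for these enzymes is whether the moderate and the stronger stress change their mRNA, and whether the 2 intensities differ.

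Atf4 is a transcription factor of the integrated stress response. When an eIF2α kinase such as PKR is active, general translation falls while the Atf4 mRNA is translated better, and the Atf4 protein pairs with C/EBP family factors on composite elements near genes of amino acid synthesis and transport. Phgdh, Psat1 and Psph carry out the successive steps from a glycolytic intermediate to serine. Shmt2, Mthfd2 and Aldh1l2 pass the carbon of serine through the mitochondrial folate pathway. Aldh18a1 and Pycr1 act at the start and the end of proline synthesis from glutamate, and Asns makes asparagine from aspartate and glutamine.

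The letters of the start regions are shown for 3 of the enzymes because they bear on that element. RefSeq start windows of GRCm38.p6, 250 bases before to 50 bases after a gene start, were at hand for 8 of the 9 genes, with 2 windows for Psat1. TGATGNAA, the core of the C/EBP-ATF response element, was searched on both strands and found in the windows of 2 of the 8 genes, Asns and Pycr1, and in 3.97% of all 32851 windows. Capitals mark that core in the windows of Asns (chr6:7693160-7693459) and Pycr1 (chr11:120643699-120643998), and the window of Phgdh (chr3:98339920-98340219), which holds no match, is given beside them. All 3 lie on the minus strand and are written 5′ to 3′ in the direction of the gene.
Asns: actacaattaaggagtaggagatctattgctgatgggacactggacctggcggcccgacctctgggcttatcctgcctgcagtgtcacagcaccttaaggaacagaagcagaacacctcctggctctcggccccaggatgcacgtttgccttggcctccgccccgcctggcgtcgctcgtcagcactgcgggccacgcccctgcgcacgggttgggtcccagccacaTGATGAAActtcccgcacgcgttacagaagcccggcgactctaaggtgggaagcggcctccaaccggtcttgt
Pycr1: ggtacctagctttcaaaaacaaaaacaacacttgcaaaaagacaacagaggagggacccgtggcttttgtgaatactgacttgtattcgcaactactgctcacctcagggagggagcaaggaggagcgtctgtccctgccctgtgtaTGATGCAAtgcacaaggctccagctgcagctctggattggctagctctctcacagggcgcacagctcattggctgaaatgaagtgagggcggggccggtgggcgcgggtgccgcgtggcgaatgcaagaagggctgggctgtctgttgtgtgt
Phgdh: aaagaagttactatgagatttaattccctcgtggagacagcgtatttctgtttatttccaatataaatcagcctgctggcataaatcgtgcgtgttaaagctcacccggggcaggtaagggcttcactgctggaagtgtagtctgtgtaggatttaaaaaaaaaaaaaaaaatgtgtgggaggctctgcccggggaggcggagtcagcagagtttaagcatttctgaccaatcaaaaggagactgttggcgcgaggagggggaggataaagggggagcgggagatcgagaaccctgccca
The core of Asns begins 23 bases before the RefSeq start and that of Pycr1 begins 103 bases before it. RefSeq starts differ from the gene coordinates of the deposited table, given further below. By those coordinates the core of Asns lies inside the gene, which reaches to chr6:7693254. Both windows of Psat1 also lie inside that gene as listed. Aldh18a1 held the E-box CACGTG, present in 7.15% of all windows, and Phgdh and Shmt2 held TGGAAA, the core of the element bound by TonEBP, present in 21.4%. TGACGTNA, of the cAMP response element type and found in 2.93% of all windows, was in no window of the 8 genes. A match is only a run of letters, and a window without one says nothing of sites outside it.

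The 9 libraries held 21716042 to 26740832 counts on genes, with TMM scaling factors of 0.974 to 1.013. The summed level of 9 fibroblast markers was 5500 to 5585 FPKM (counts per length and per library total) in iso-osmolar libraries. It was 5384 to 5640 FPKM at 500 mOsm and 6237 to 6296 FPKM at 600 mOsm. Col1a1, Vim and S100a4 were among the abundant markers. The markers Col3a1 and Pdgfra were low, at 7.86 to 9.08 and 5.65 to 5.85 FPKM without stress, and both fell, Col3a1 with log2 fold changes of -1.27 and -0.65 (edgeR adjusted p = 4.21e-07 and 0.000124) and Pdgfra with -0.70 and -0.68 (edgeR adjusted p = 3.21e-05 and 4.72e-05) at 500 and 600 mOsm. Of the 9 fibroblast markers 1 was higher and 2 lower at 500 mOsm at an edgeR adjusted p under 0.05, beside 13.2% and 14.8% of all tested genes. At 600 mOsm 4 were higher and 2 lower, beside 15.1% and 20.0%. Col1a1, Col1a2, Pdgfrb and S100a4 had more FPKM in every 600 mOsm library than in any iso-osmolar one. Markers of other cell types were low but not level. The summed level of 4 endothelial markers was 0.202 to 0.246 FPKM in iso-osmolar libraries, 3.36 to 3.83 FPKM at 500 mOsm and 0.577 to 0.901 FPKM at 600 mOsm, most of it Pecam1 at both stress intensities. Those of 5 epithelial markers were 0.104 to 0.278, 1.17 to 1.47 and 0.140 to 0.324 FPKM, and those of 4 macrophage markers 3.25 to 3.57, 4.65 to 5.10 and 3.33 to 3.61 FPKM. Epcam was listed at 0 in every iso-osmolar library and Ptprc stayed at or below 0.0505 FPKM in all libraries. Other markers of the same lists were higher. The macrophage markers Csf1r and Cd68 lay at 2.02 to 3.26 and 0.694 to 1.54 FPKM over all libraries. Itgam was at most 0.0192 FPKM in iso-osmolar medium and 0.273 to 0.522 FPKM at 500 mOsm. The epithelial marker Cdh1 was at most 0.00918 FPKM in iso-osmolar medium and 0.749 to 0.835 FPKM at 500 mOsm. The part of this shift in the values of the 9 enzymes was not tested.

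Between genes, levels were compared as FPKM. In iso-osmolar medium the order was Phgdh (644 ± 18.9 FPKM, SD, n = 3), Shmt2 (318 ± 12.9), Psat1 (180 ± 4.02), Asns (94.8 ± 1.79), Mthfd2 (93.2 ± 1.91), Aldh18a1 (60.2 ± 0.354), Psph (19.8 ± 0.506), Pycr1 (12.0 ± 0.334) and Aldh1l2 (6.41 ± 0.225). The same order was seen at both stress intensities. Of the 8 neighbouring pairs in it, the libraries of Asns and Mthfd2 alone overlapped in iso-osmolar medium and at 500 mOsm, and no pair overlapped at 600 mOsm. Phgdh was thus the most abundant of the 9 mRNAs in every treatment and Aldh1l2 the least.

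The fold changes of the 9 enzymes were small beside those of all tested genes, as were those of some related gene lists. At 500 mOsm 1 of the 9 was higher and 0 were lower than in iso-osmolar medium by edgeR's quasi-likelihood test at an adjusted p under 0.05, beside 13.2% of the 13082 tested genes that were higher and 14.8% that were lower. At 600 mOsm 4 were higher and 0 lower, beside 15.1% and 20.0% of the tested genes. Between 600 and 500 mOsm 2 were higher at 600 mOsm and 0 lower, beside 11.9% and 17.2%. At an unadjusted p under 0.05, edgeR had 1, 5 and 5 of the 9 higher in these comparisons and 1, 1 and 0 lower. DESeq2 had 1, 4 and 5 higher and 1, 1 and 0 lower. The share of all tested genes at that cutoff was not counted. In edgeR it is at least the 28%, 35.1% and 29.1% called in either direction after adjustment. After adjustment DESeq2 had 1, 3 and 2 of the 9 higher and 0 lower in any comparison. Over the 23419 genes with a DESeq2 p-value, 15.7%, 18% and 15.2% were called in either direction. These include low-count genes that the filter before edgeR left out, so the shares are not comparable with those of the 13082 genes. The median log2 fold change of the 9 was 0.024 at 500 mOsm, 0.11 at 600 mOsm and 0.095 between the intensities, where that of all tested genes was 0.013, 0.0075 and 0.0061. The median size of a log2 fold change, without its sign, was 0.081, 0.11 and 0.095 for the enzymes and 0.17, 0.22 and 0.18 for all tested genes. All tested genes include low-count ones, such as Amt with 22 to 36 counts in iso-osmolar libraries. Of the gene lists counted below, purine synthesis had 0.040, 0.087 and 0.098 and folate enzymes and carriers 0.059, 0.14 and 0.092. Proline, ornithine and arginine had 0.098, 0.12 and 0.20, serine and glycine use 0.21, 0.26 and 0.12. Aspartate, asparagine and glutamine had 0.19, 0.18 and 0.060. The comparisons with iso-osmolar medium share its 3 libraries. In none of the 3 comparisons did a log2 fold change of an enzyme reach 0.5, and the 95% intervals reached at most 0.37.

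**Figure D1:**
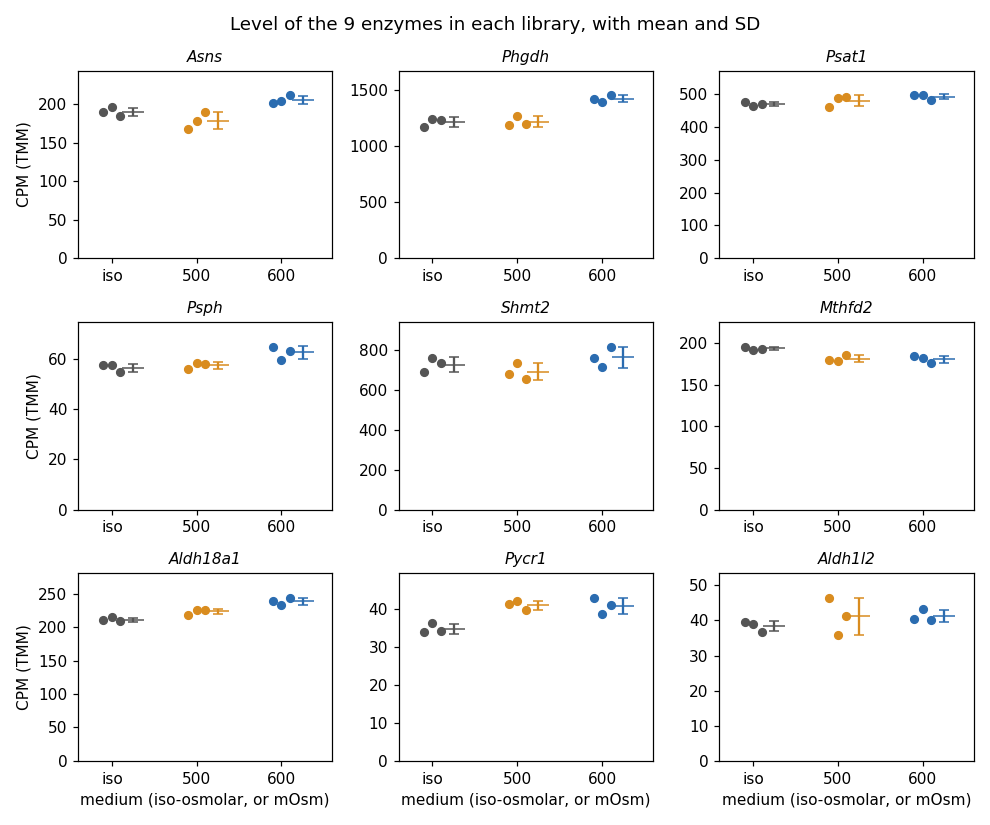
Level of each enzyme as TMM-scaled CPM (y axis from 0) in each of the 3 media (x axis). Points are libraries and the bars give the mean ± SD of 3. The libraries of Pycr1 lie between 34.0 and 36.4 CPM in iso-osmolar medium and between 39.8 and 42.1 CPM at 500 mOsm.

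Of the serine synthesis enzymes, Phgdh, which takes the first step from 3-phosphoglycerate, rose at 600 mOsm. Its CPM (TMM-scaled count per fixed library total) was 1166, 1241 and 1234 in the iso-osmolar libraries, 1183, 1271 and 1198 at 500 mOsm and 1418, 1394 and 1452 at 600 mOsm. The iso-osmolar and 500 mOsm libraries overlapped and all 3 of 600 mOsm lay above both. The log2 fold change was 0.23 ± 0.045 (SE, n = 3 per treatment, edgeR adjusted p = 0.00178) against iso-osmolar medium and 0.22 ± 0.044 against 500 mOsm (edgeR adjusted p = 0.00233). At 500 mOsm it was 0.0048, with a 95% interval from -0.092 to 0.10 (edgeR adjusted p = 0.953).

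Psat1, the aminotransferase of the next step, did not pass the test in any of the comparisons. Its CPM was 475, 463 and 471 in iso-osmolar medium, 460, 488 and 490 at 500 mOsm and 495, 496 and 482 at 600 mOsm. The 600 mOsm libraries lay above those of iso-osmolar medium, and those of 500 mOsm overlapped with both. The 95% intervals of its log2 fold change spanned -0.059 to 0.12 at the lower intensity and -0.024 to 0.16 at the higher.

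Psph, the phosphatase that releases serine, had 57.5, 57.5 and 54.7 CPM in iso-osmolar medium, 55.9, 58.5 and 57.9 CPM at 500 mOsm and 65.0, 59.8 and 63.3 CPM at 600 mOsm. The 600 mOsm libraries lay above both other treatments. Its log2 fold change at 600 mOsm was 0.15 ± 0.054 (SE), and the edgeR adjusted p of 0.0481 was close to the threshold and was lost in 15 of 21 alternatives that left the threshold as it was, where it reached 0.174. Psph shares 452 exonic bases with Cct6a, a chaperonin gene on the opposite strand with up to 10483 counts in a library, and the described library protocol names no step that marks strand, so that reads from the shared bases cannot be told apart. The log2 fold change of Cct6a at 600 mOsm was 0.013 (edgeR adjusted p = 0.858).

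Phgdh shares at least 100 bases at 95% identity or more with 16 other annotated genes, of which the 7 listed in the deposited table had at most 2 counts in a library, and how reads with several positions were counted is not given in the sources used here. All 9 enzyme genes lie on the minus strand of mm10, Asns at chr6:7675169-7693254, Phgdh at chr3:98313170-98339990, Psat1 at chr19:15904678-15947337, Psph at chr5:129765558-129787252, Shmt2 at chr10:127517123-127522444, Mthfd2 at chr6:83305691-83317606, Aldh18a1 at chr19:40550257-40588463, Pycr1 at chr11:120635712-120643769 and Aldh1l2 at chr10:83487450-83534140. All are protein-coding, and each value covers the reads assigned to the whole gene.

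Of the mitochondrial folate enzymes none passed the test in a comparison with iso-osmolar medium. Shmt2, which splits serine into glycine and a one-carbon unit, had 690, 760 and 735 CPM in iso-osmolar medium, 679, 738 and 656 CPM at 500 mOsm and 760, 714 and 819 CPM at 600 mOsm. All 3 treatments overlapped. Its log2 fold change was -0.076 at 500 mOsm (95% interval -0.21 to 0.057), 0.070 at 600 mOsm (-0.063 to 0.20) and 0.15 between the intensities (edgeR adjusted p = 0.0948). That last difference passed the threshold without the second library of 500 mOsm (0.20, edgeR adjusted p = 0.0393) or without the second of 600 mOsm (0.19, edgeR adjusted p = 0.0366), and with no filter on low counts (0.17, edgeR adjusted p = 0.0274), and it was 0.095 without the third of 600 mOsm. Single libraries also moved the other values of Shmt2. At 500 mOsm it was -0.12 without iso-osmolar library 1, -0.046 without iso-osmolar library 2, -0.14 without 500 mOsm library 2 and -0.038 without 500 mOsm library 3. At 600 mOsm it was 0.032 without iso-osmolar library 1, 0.12 without 600 mOsm library 2 and 0.017 without 600 mOsm library 3.

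Mthfd2, a methylenetetrahydrofolate dehydrogenase and cyclohydrolase, was at 196, 191 and 193 CPM in iso-osmolar medium, 180, 178 and 185 CPM at 500 mOsm and 184, 182 and 176 CPM at 600 mOsm. Every stressed library lay below every iso-osmolar one. The log2 fold change was -0.095 ± 0.042 (SE) at 500 mOsm and -0.099 ± 0.042 at 600 mOsm, and neither passed the threshold (edgeR adjusted p = 0.119 and 0.0885).

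Aldh1l2, which oxidises formyltetrahydrofolate, was the least abundant of the 9. It had 39.5, 39.0 and 36.8 CPM in iso-osmolar medium, 46.4, 35.8 and 41.2 CPM at 500 mOsm and 40.4, 43.2 and 40.2 CPM at 600 mOsm. The 500 mOsm libraries spread over the range of both others. The 95% interval of its log2 fold change spanned -0.086 to 0.28 at the lower intensity and -0.083 to 0.29 at the higher. Aldh1l2 shares 1056 exonic bases with D10Wsu102e on the opposite strand, which fell at both intensities (log2 fold change -0.41 and -0.44, edgeR adjusted p = 1.36e-05 and 7.64e-06), and reads from the shared bases cannot be told apart without strand.

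Both proline synthesis enzymes were higher at 600 mOsm. Aldh18a1, the synthase that turns glutamate into the precursor of proline and ornithine, had 211, 215 and 209 CPM in iso-osmolar medium, 219, 226 and 225 CPM at 500 mOsm and 240, 233 and 244 CPM at 600 mOsm. The 3 treatments did not overlap. Its log2 fold change was 0.18 ± 0.041 (SE) at 600 mOsm (edgeR adjusted p = 0.00565), and 0.081 at 500 mOsm did not pass (edgeR adjusted p = 0.174). The call at 600 mOsm was kept in all 21 alternatives that left the threshold as it was.

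Pycr1, the mitochondrial reductase that completes proline, had 34.0, 36.4 and 34.2 CPM in iso-osmolar medium, 41.4, 42.1 and 39.8 CPM at 500 mOsm and 43.0, 38.8 and 41.1 CPM at 600 mOsm. Every stressed library was above every iso-osmolar library. It was the only enzyme of the 9 that passed the test at 500 mOsm, and its log2 fold change was 0.24 ± 0.063 (SE, edgeR adjusted p = 0.0127). At 600 mOsm the log2 fold change was 0.23 ± 0.063 (edgeR adjusted p = 0.0125), and between the intensities it was -0.0035, with a 95% interval from -0.14 to 0.13. The call at 500 mOsm was lost without iso-osmolar library 1 (0.21, edgeR adjusted p = 0.0513), iso-osmolar library 3 (0.22, edgeR adjusted p = 0.0535) or 500 mOsm library 2 (0.21, edgeR adjusted p = 0.0587), and that at 600 mOsm without 600 mOsm library 1 (0.20, edgeR adjusted p = 0.0609).

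Asns differed between the intensities. It had 190, 196 and 185 CPM in iso-osmolar medium, 168, 178 and 190 CPM at 500 mOsm and 202, 204 and 212 CPM at 600 mOsm. The 600 mOsm libraries lay above all others, and those of iso-osmolar medium and 500 mOsm overlapped. The log2 fold change between 600 and 500 mOsm was 0.20 ± 0.052 (SE, edgeR adjusted p = 0.0102), whereas -0.091 at 500 mOsm and 0.11 at 600 mOsm against iso-osmolar medium did not pass (edgeR adjusted p = 0.227 and 0.109).

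**Figure D2:**
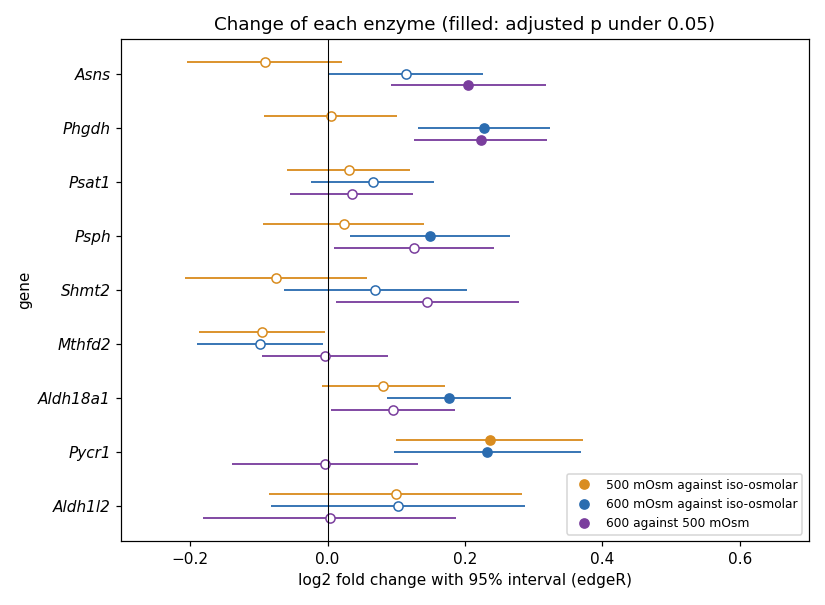
Log2 fold change of each enzyme (x axis, genes on the y axis) in the 3 comparisons, with 95% intervals from edgeR. Filled points passed an adjusted p of 0.05, and all points lie between -0.099 and 0.24.

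Which enzymes passed depended on a per-library correction for GC content and for length of the transcript, a choice added after the data were seen. With the correction 0 of the 9 were higher and 4 lower at 500 mOsm, namely Asns (-0.17), Phgdh (-0.21), Shmt2 (-0.28) and Mthfd2 (-0.21), and Pycr1 was no longer called (0.11, edgeR adjusted p = 0.118). At 600 mOsm 6 were higher, with Asns (0.14), Psat1 (0.12) and Aldh1l2 (0.31) gained and Phgdh lost (0.074, edgeR adjusted p = 0.118). Between the intensities 8 were higher at 600 mOsm, all but Pycr1. The GC content of the longest transcript was 57.2% for Phgdh, 57.4% for Shmt2 and 47.7% for Asns and Aldh1l2. Over all tested genes the same correction moved the calls from 1728 higher and 1931 lower to 1615 and 3591 (12.3% and 27.4% of the tested genes) at 500 mOsm, from 1977 and 2617 to 2339 and 2655 (17.9% and 20.3%) at 600 mOsm, and from 1560 and 2250 to 3580 and 1780 (27.4% and 13.6%) between the intensities. Aldh18a1, Psph and Pycr1 at 600 mOsm and Asns and Phgdh between the intensities passed with and without it. Over all 22 settings tried, the largest log2 fold change of any of the 9 in either direction was 0.31, that of Asns between the intensities.

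The enzymes were also set against their isozymes within each library. The log2 ratio of FPKM, with 1 added to each value, was compared for 6 pairs in 3 comparisons by an exact two-sided permutation test, whose smallest p with 3 libraries against 3 is 0.1. Of 18 ratios 8 reached that p, and after adjustment over the 18 the smallest value was 0.225 (exact permutation test), so that none could pass 0.05. Mthfd2 relative to Mthfd1, the cytosolic trifunctional enzyme, had a mean log2 ratio of 0.55 ± 0.035 (SD, n = 3) without stress, 0.45 ± 0.054 at the lower and 0.31 ± 0.025 at the higher intensity, with no overlap between treatments. Mthfd1 itself rose at 600 mOsm (log2 fold change 0.14 ± 0.041, SE, edgeR adjusted p = 0.0163). Shmt2 relative to the cytosolic Shmt1 went from 2.34 ± 0.13 to 2.36 ± 0.046 and 2.54 ± 0.054, with the 600 mOsm libraries above the rest. Mthfd2 relative to its mitochondrial paralog Mthfd2l was 3.55 ± 0.045, 3.42 ± 0.15 and 3.50 ± 0.069, and the treatments overlapped.

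Pycr1 had 12.0 FPKM in iso-osmolar medium beside 70.6 ± 1.54 FPKM for its paralog Pycrl. Its log2 ratio to Pycrl was -2.46 ± 0.022 without stress, -2.15 ± 0.064 at the lower and -2.36 ± 0.11 at the higher intensity. The 500 mOsm libraries lay above the iso-osmolar ones and above those of 600 mOsm. Aldh1l1, the cytosolic paralog of Aldh1l2, had at most 6 counts in a library.

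**Figure D3:**
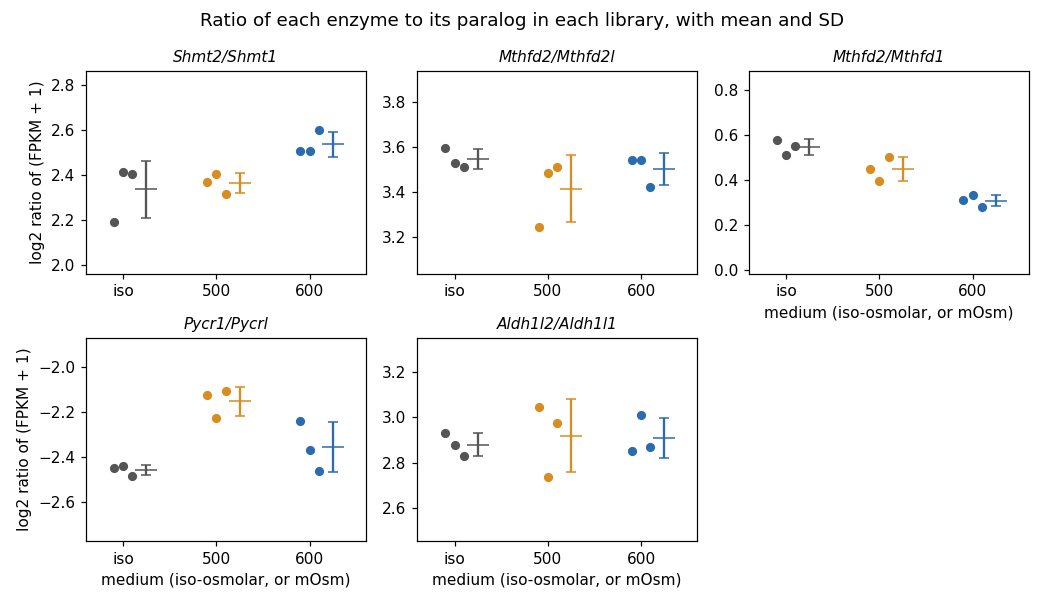
Log2 ratio of FPKM + 1 of each enzyme to its paralog (y axis, the same height of range in each panel) by treatment (x axis). Points are libraries and bars the mean ± SD of 3, and the ratio of Mthfd2 to Mthfd1 falls from 0.55 to 0.45 and 0.31.

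Several genes placed with Atf4 moved by far more than the enzymes. Atf4 had 359 to 373 CPM in iso-osmolar medium, 427 to 433 CPM at 500 mOsm and 353 to 390 CPM at 600 mOsm. It rose at 500 mOsm (log2 fold change 0.24 ± 0.045, SE, edgeR adjusted p = 0.00143) and was lower at 600 than at 500 mOsm (-0.20 ± 0.045, edgeR adjusted p = 0.00507). Of 19 tested genes of the Atf4 axis (the factor, its partners, the eIF2α kinases and stress targets) 5 rose and 6 fell at 500 mOsm, with a median log2 fold change of -0.058. Ddit4, an inhibitor of mTORC1 signalling, rose by 3.28, Ppp1r15a, which directs the phosphatase that reverses eIF2α phosphorylation, by 3.05 and the factor Atf3 by 3.04, all on the log2 scale. Vegfa, an angiogenic growth factor, fell by 0.79, Sesn2, a leucine sensor, by 0.68 and Ppp1r15b by 0.53.

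At 600 mOsm 4 genes of that axis rose and 4 fell, with a median log2 fold change of 0.038. Ddit4 rose by 1.11, Ddit3, the C/EBP homologous factor CHOP, by 0.70 and Atf3 by 0.62, while Vegfa fell by 2.13, Ppp1r15b by 0.47 and the Atf4 partner Cebpg by 0.43, on the log2 scale. TGATGNAA was in the start windows of 6 of the 19 axis genes with a window, among them Atf3 and Trib3.

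**Figure D4:**
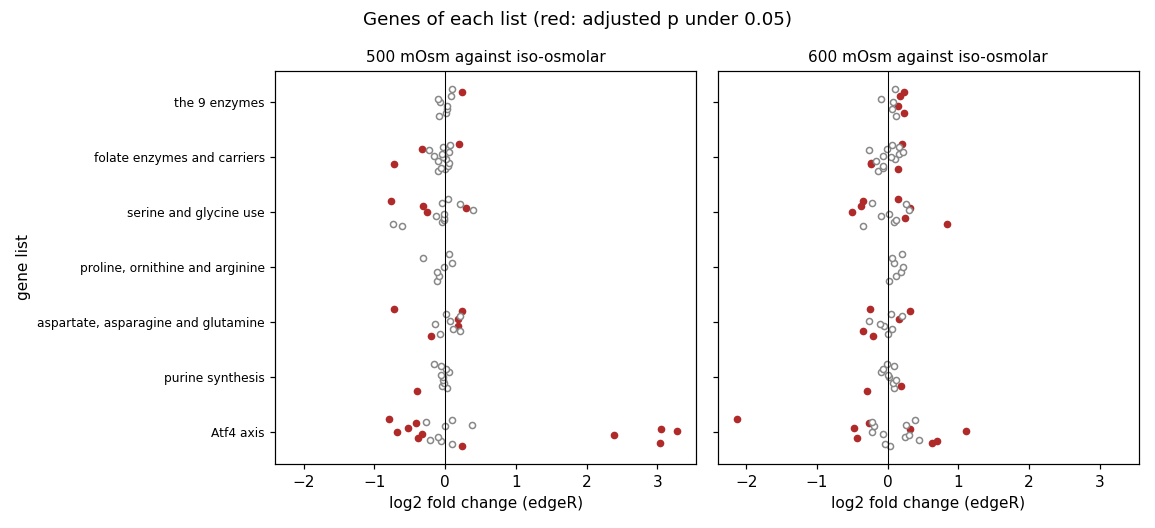
Log2 fold changes at 500 and 600 mOsm against iso-osmolar medium (x axis, the same in both panels) for the 9 enzymes and 6 gene lists (y axis). Each point is a gene, red where the adjusted p of edgeR was under 0.05, and the enzymes stay within 0.24 of 0 while Ddit4 reaches 3.28 at 500 mOsm.

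Genes of the surrounding metabolism were counted in the same fit. Among 17 tested genes for folate enzymes and carriers 1 rose and 2 fell at 500 mOsm and 2 rose and 2 fell at 600 mOsm, with medians of -0.038 and -0.0099. The folate carrier Slc19a1 fell at 500 mOsm (-0.32), Mtr, the methionine synthase, fell at 600 mOsm (-0.23), and the mitochondrial carrier Sfxn3 rose at both (0.19 and 0.20). Of 15 genes that use serine and glycine 1 rose and 3 fell at 500 mOsm and 4 rose and 3 fell at 600 mOsm, with medians of -0.047 and 0.085. Mat2a, which makes S-adenosylmethionine, fell by 0.77 and 0.35, Alas1, the first enzyme of heme synthesis, fell by 0.32 and 0.38, and Sptlc2, of sphingolipid synthesis, fell by 0.26 and 0.51. Cth, of transsulfuration, rose by 0.29 and 0.32, and Gcat (0.25) and Amt (0.84) rose at 600 mOsm. Amt was low, with 22 to 36 counts in the iso-osmolar libraries and 33 to 67 at 600 mOsm.

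Of 7 tested genes of proline, ornithine and arginine metabolism beside the members, edgeR and DESeq2 each called 0 at either intensity against iso-osmolar medium, with medians of -0.084 and 0.12 in edgeR. At an unadjusted p under 0.05 edgeR had 1 that was lower at 500 mOsm, and both tools had 1 that was higher at 600 mOsm (DESeq2 had 0 at 500 mOsm). Again, the share of all tested genes at that cutoff was not counted. Among 12 tested genes of aspartate, asparagine and glutamine 3 rose and 2 fell at 500 mOsm and 2 rose and 3 fell at 600 mOsm, with medians of 0.084 and -0.020. The aspartate-glutamate carrier Slc25a12 rose (0.23 and 0.31) and its paralog Slc25a13 fell (-0.73 and -0.25). Gpt2 rose at both intensities (0.19 and 0.17) and Glul at 500 mOsm (0.18), while Got1 fell at both (-0.19 and -0.21). Of the 11 purine synthesis genes 1 fell at 500 mOsm, and 1 rose and 1 fell at 600 mOsm, with medians of -0.031 and 0.014. Ppat, the first committed enzyme of purine synthesis, fell at both (-0.39 and -0.29), and Pfas rose at 600 mOsm (0.19). Between the intensities, edgeR called 2 of the 7 proline, ornithine and arginine genes higher at 600 mOsm and 0 lower. DESeq2 called 1 higher, and the edgeR median was 0.20. Of the purine genes 3 were higher and 0 lower (median 0.088), and of the folate genes 3 and 1 (0.090). Genes of serine and glycine use had 3 and 1 (0.047), those of aspartate, asparagine and glutamine 1 and 2 (-0.013). The shares of all tested genes were 11.9% and 17.2%, and their median was 0.0061.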

How the data were processed

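RNA of C57Bl/6 MEFs was sequenced from 3 libraries per treatment. The authors deposited raw read counts per gene without normalization and FPKM made from them with the gene length and the library total. The submitters' processing notes name STAR and mm10, and the counting tool, its strand setting and its handling of reads with several positions are not given in the sources used here. The authors' own fold changes and p-values in that table were not used. Counts were scaled by TMM, filtered by filterByExpr and tested with the quasi-likelihood test of edgeR 4.0.16 in R 4.3.3, all 9 libraries in a single fit, with Benjamini-Hochberg adjustment over 13082 genes and a threshold of 0.05. The common BCV (biological coefficient of variation) was 0.0756, and 3 counts correspond to 0.112 to 0.138 CPM. DESeq2 1.42.0 and limma 3.58.1 were alternatives. Same-numbered libraries did not all deviate together (correlations of their deviations -0.688 to 0.611, mean -0.242, over 9 pairs of libraries, mean 0.123 for 18 pairs with different numbers), so no block was used. Shared sequence was searched with blastn 2.17.0. Start windows and genes were taken from RefSeq (GRCm38.p6) and GENCODE M21. The enzymes, pathway lists and tests were chosen with earlier results of these data known. The rule for named genes took all enzymes and their paralogs, and up to 3 genes per direction with the largest change past the threshold in each list, and a few genes that it takes are not reported here.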

Additional observations from a re-analysis of the deposited data

How the results depend on the processing

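Each fold change was recomputed under 21 alternatives, and the calls were also counted at 2 stricter thresholds. The number of enzymes called was 0, 2 and 1 at 500 mOsm, at 600 mOsm and between the intensities with an adjusted p under 0.01 (18.9%, 21.8% and 18.0% of all tested genes). With an adjusted p under 0.05 and a log2 fold change of at least 1 in size it was 0, 0 and 0 (8.58%, 5.67% and 6.55%). Leaving out each library in turn gave 0 to 1, 2 to 4 and 2 to 3 called. The share of all tested genes was then 23.5% to 29%, 26.5% to 35.3% and 21.9% to 28.9%. With limma on log2(FPKM + 1) 4 were called at 600 mOsm, 3 higher and 1 lower (Mthfd2), beside 33.4% of all tested genes. Correction for GC content and length gave 4, 6 and 8 called (39.8%, 38.2% and 41.0% of all tested genes), and with the replicate block 4, 5 and 7 (35.8%, 33.2% and 36.5%). The replicate block alone gave 1, 3 and 2 (23.8%, 29% and 23.6% of all tested genes), and the call of Psph at 600 mOsm was lost (edgeR adjusted p = 0.0985). It changed no other call of an enzyme.

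The GC and length correction, with or without the block, turned the log2 fold changes of Phgdh (-0.21), Psat1 (-0.016 and -0.017), Psph (-0.029) and Aldh18a1 (-0.024) at 500 mOsm, of Shmt2 (-0.076) at 600 mOsm and of Mthfd2 (0.11) and Pycr1 (0.064 and 0.063) between the intensities. Under these settings the median of all tested genes was -0.062 and -0.061 at 500 mOsm. It was 0.018 at 600 mOsm and 0.091 between the intensities, with or without the block. Without a filter on low counts the sign turned for Phgdh at 500 mOsm (-0.011) and for Mthfd2 (0.017) and Pycr1 (0.018) between the intensities, and under DESeq2 for the latter pair (0.0028 and 0.0038). Aldh1l2 between the intensities turned with the library size alone (-0.014), at least 10 counts in every library (-0.0091) and limma on FPKM with 1 or 0.1 added (-0.0063). Leaving out a library gave ranges across 0 for Phgdh (-0.038 to 0.025) and Psph (-0.0041 to 0.042) at 500 mOsm and for Mthfd2 (-0.015 to 0.016), Pycr1 (-0.037 to 0.037) and Aldh1l2 (-0.079 to 0.098) between the intensities. The cause was not tested.

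The ratio of Aldh1l2 to Aldh1l1 turned with 0.1 added to the FPKM (-0.24 at 500 and -0.26 at 600 mOsm) and as CPM (-0.063 at both), and leaving out a library gave -0.025 to 0.13, -0.021 to 0.061 and -0.099 to 0.055 in the 3 comparisons. That of Shmt2 to Shmt1 at 500 mOsm ran from -0.045 to 0.067. Each enzyme had at least 747 counts per library.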
